A study of Sus scrofa with 5 samples.

Results

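Hyaluronan is a long sugar polymer that cumulus cells secrete around the oocyte, and the 8 genes described here make it, anchor proteins to it, bind it at the cell surface or cut it. They were listed by name, with earlier results of these data known, and no measured value entered the rule: the synthases HAS2 and HAS3, the matrix proteins VCAN and HAPLN1, the crosslinking proteins TNFAIP6 and PTX3, the receptor CD44 and the hyaluronidase HYAL2. Of the 30822 genes in each file, 7 carried these names. HAS2 was taken from the gene listed as SHAS2, for which RefSeq's gene table of Sscrofa11.1 gives Has2 as a synonym. RNA was measured in whole ovarian follicles of female Indian Ghoongroo pigs (Sus scrofa). Large follicles gave 3 libraries and small follicles gave 2, which share breed, sex and tissue. The sources used here do not give age, hormone treatment, follicle diameter or whether the oocyte with its cumulus cells stayed in the sample. The labels call the replicates biological without naming animals, so p-values measure the spread between these samples only.

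In the ovulatory follicle, the luteinizing hormone surge leads granulosa cells to release EGF-like ligands such as amphiregulin, and with prostaglandin E2 these switch on HAS2, TNFAIP6 and PTX3 in cumulus cells. TNFAIP6 moves heavy chains of the inter-alpha-trypsin inhibitor from serum onto hyaluronan, and PTX3 ties those chains together. The cell mass then swells, a step known as cumulus expansion. The comparison of large with small follicles asks whether the RNAs of this programme were higher in the larger follicles.

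Levels are FPKM, that is, fragments scaled to gene length and library size, as the authors deposited them. Libraries held between 9523739 and 11507527 fragments. Any gene that reached 1 FPKM in 2 libraries was tested by limma on log2(FPKM + 1), and a gene is called at a Benjamini-Hochberg adjusted p under 0.05. Fold changes are large minus small on that scale, which understates changes of low genes; ± gives the SD of a level and the SE of a fold change. Of 13087 genes tested 128 were called, or 0.978%. That count was 29, 268 and 222 without large follicle replicates 1, 2 and 3, and 78 and 60 without small follicle replicates 1 and 2. Markers of the oocyte were present in every library, with GDF9 at 14.6, 20.8 and 17.2 FPKM in large follicles and 14.7 and 13.9 FPKM in small follicles. The summed level of 9 oocyte genes was 49.2 to 66.3 FPKM in large and 28.5 to 40.6 FPKM in small follicles. Of these genes 6 were tested, 4 with higher and 2, ZP2 and BMP15, with lower values in large follicles, and limma called 0. ZP3 had 30.0, 6.88 and 22.4 FPKM in large and 3.41 and 12.2 FPKM in small follicles. ZP4 had 13.1, 14.9 and 13.4 FPKM in large and 3.63 and 6.05 FPKM in small follicles. NLRP5 and DPPA3 stayed under 1 FPKM in all libraries, and FIGLA was at 0 in small follicle replicate 1.

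No hyaluronan or cumulus matrix gene was called different between large and small follicles. HYAL2, VCAN and PTX3 were well expressed in both sizes, TNFAIP6, CD44 and HAS3 were low, and HAPLN1 and HAS2 lay under 1 FPKM in every library. The 2 genes whose values did not overlap between the groups went opposite ways: CD44 averaged 3.40 ± 1.39 FPKM in large and 1.70 ± 0.414 FPKM in small follicles, and TNFAIP6 1.82 ± 0.0884 FPKM in large and 3.52 ± 1.71 FPKM in small follicles (SD, n = 3 and 2). Of the 8 genes 6 passed the filter. Limma called 0 of these 6 higher, where 0.535% of all genes tested were called higher, and 0 lower, where 0.443% were called lower. At an unadjusted p under 0.05 there were 0 of 6, against 10.4% of all genes tested, and limma voom on fragments called 0. Values were higher in large follicles for 3 of the 6 and lower for 3, with a median log2 fold change of 0.021 against -0.08 over all genes tested. Groups did not overlap for 26.1% of all genes tested, with large above small for 10.9% and large below small for 15.2%.

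**Figure D1:**
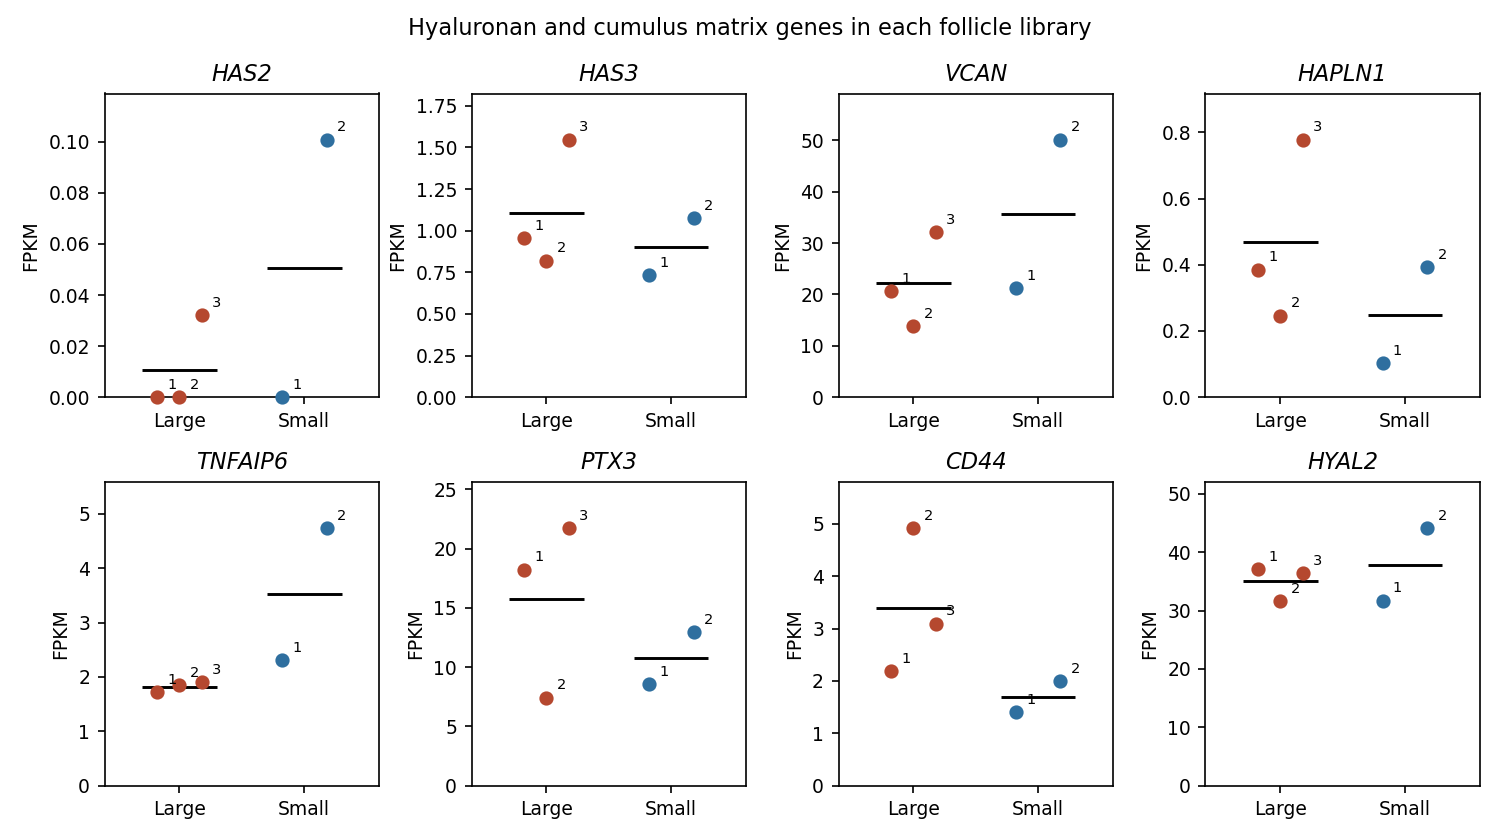
FPKM of the 8 hyaluronan and cumulus matrix genes, 1 panel per gene with its own axis from 0; each point is a library with its replicate number, red for large and blue for small follicles, and the bar is the group mean. The groups separate for CD44, higher in all 3 large libraries, and for TNFAIP6, lower in all 3, and overlap for the other genes.

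HAS2 makes the bulk of cumulus hyaluronan at the plasma membrane, and its RNA was at the limit of counting in all 5 libraries. The gene lies on Sscrofa11.1 chromosome 4, 17583154 to 17613524. HAS2 counted 0, 0 and 1 fragments in the large follicle libraries, and 0 and 3 fragments in the small ones. The highest value was 0.101 FPKM, in small follicle replicate 2. A count of 3 fragments, the floor used here, corresponds to 0.0879 to 0.106 FPKM for this gene, a limit that covers counting error only, so no difference was detectable at this depth. A neighbouring gene annotated as similar to HAS2 begins 34820 bases beyond its end and had 0 fragments in every library. The sources used here do not say how fragments that match both copies were counted, nor whether strand was used where an uncharacterized antisense gene overlaps HAS2, so its level is uncertain. An exact two-sided permutation test over the libraries gave p = 0.80, where 3 against 2 libraries cannot go below 0.20.

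HAS3, a synthase of shorter hyaluronan chains, was the most abundant of the synthase RNAs. It lies on chromosome 6, 17844974 to 17870331, and the start of the gene overlaps TANGO6 on the same strand. HAS3 had 0.954, 0.819 and 1.55 FPKM in large follicles, from 55, 41 and 81 fragments, and 0.734 and 1.07 FPKM in small follicles, from 35 and 54 fragments. The groups overlapped, with large follicle replicate 3 above the rest. Its log2 fold change was 0.14 ± 0.26 (limma adjusted p = 0.927), with a 95% interval from -0.46 to 0.73. HAS1, the remaining synthase, had 6, 2 and 5 fragments in large and 3 and 9 fragments in small follicles, and was not tested. Per length, HAS3 exceeded HAS1 in each library, by 2.53-fold to 8.63-fold.

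The enzymes that supply the sugar precursors were expressed in both sizes. Their list of 8 genes also holds HAS1, which alone was not tested. Of the 7 tested, 2 had higher and 5 had lower values in large follicles. Limma called 0 in either direction, and 0 had an unadjusted p under 0.05. UGDH, which forms UDP-glucuronic acid, averaged 7.81 ± 1.73 FPKM in large and 9.74 ± 0.884 FPKM in small follicles (log2 fold change -0.30 ± 0.27, limma adjusted p = 0.805). GFPT2, an entry enzyme of hexosamine synthesis, averaged 8.16 ± 0.734 against 10.5 ± 0.319 FPKM in small follicles, with no overlap between the groups (limma adjusted p = 0.741). For PGM3, a later enzyme of that path, the log2 fold change was 0.37 ± 0.33 (limma adjusted p = 0.802).

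VCAN encodes versican, a large chondroitin sulfate proteoglycan whose head binds hyaluronan, and it had the second highest mean level of the 8 RNAs. The gene lies on chromosome 2, 91682177 to 91811674. VCAN had 20.7, 13.8 and 32.2 FPKM in large follicles, against 21.2 and 50.1 FPKM in small follicles. Small follicle replicate 2 stood above all other libraries, while small follicle replicate 1 lay within the range of the large ones. Its log2 fold change was -0.62 ± 0.40 (limma adjusted p = 0.6995), with a 95% interval from -1.52 to 0.29. Without small follicle replicate 2 it was -0.014, and without small follicle replicate 1 it was -1.22 (limma adjusted p = 0.332).

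HAPLN1, the link protein that locks versican onto hyaluronan, lies on the same chromosome 45820 bases beyond VCAN, at 91857495 to 91935485, on the other strand, and overlaps an uncharacterized antisense gene. HAPLN1 had 0.386, 0.247 and 0.777 FPKM in large follicles, from 18, 10 and 33 fragments, and 0.104 and 0.393 FPKM in small follicles, from 4 and 16 fragments. It did not pass the filter, and the groups overlapped (exact two-sided permutation p = 0.60). VCAN exceeded HAPLN1 per length in each library, by 41.4-fold at the least. Among the related link proteins HAPLN3, chosen after its values were seen, was higher than HAPLN1 in each library, at 5.36, 5.28 and 4.90 FPKM in large and 5.92 and 5.37 FPKM in small follicles (log2 fold change -0.10 ± 0.26, limma adjusted p = 0.941).

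Of the list that holds the other hyaluronan-binding proteoglycans, the link proteins and the proteases that cut versican, 7 of 12 genes were tested, 2 with higher and 5 with lower values, and limma called 0, with 0 at an unadjusted p under 0.05. ADAMTS1, a protease that cuts versican in the ovulating mouse follicle, had 18.8, 18.8 and 29.1 FPKM in large and 24.5 and 42.2 FPKM in small follicles (log2 fold change -0.54 ± 0.29, limma adjusted p = 0.599). With a library left out it ran from -0.92 to -0.16 for ADAMTS1, smallest without small follicle replicate 2. For ADAMTS5, a related protease, the log2 fold change was 0.58 ± 0.33 (limma adjusted p = 0.622), and for ADAMTS9 it was -0.38 ± 0.31 (limma adjusted p = 0.774).

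**Figure D2:**
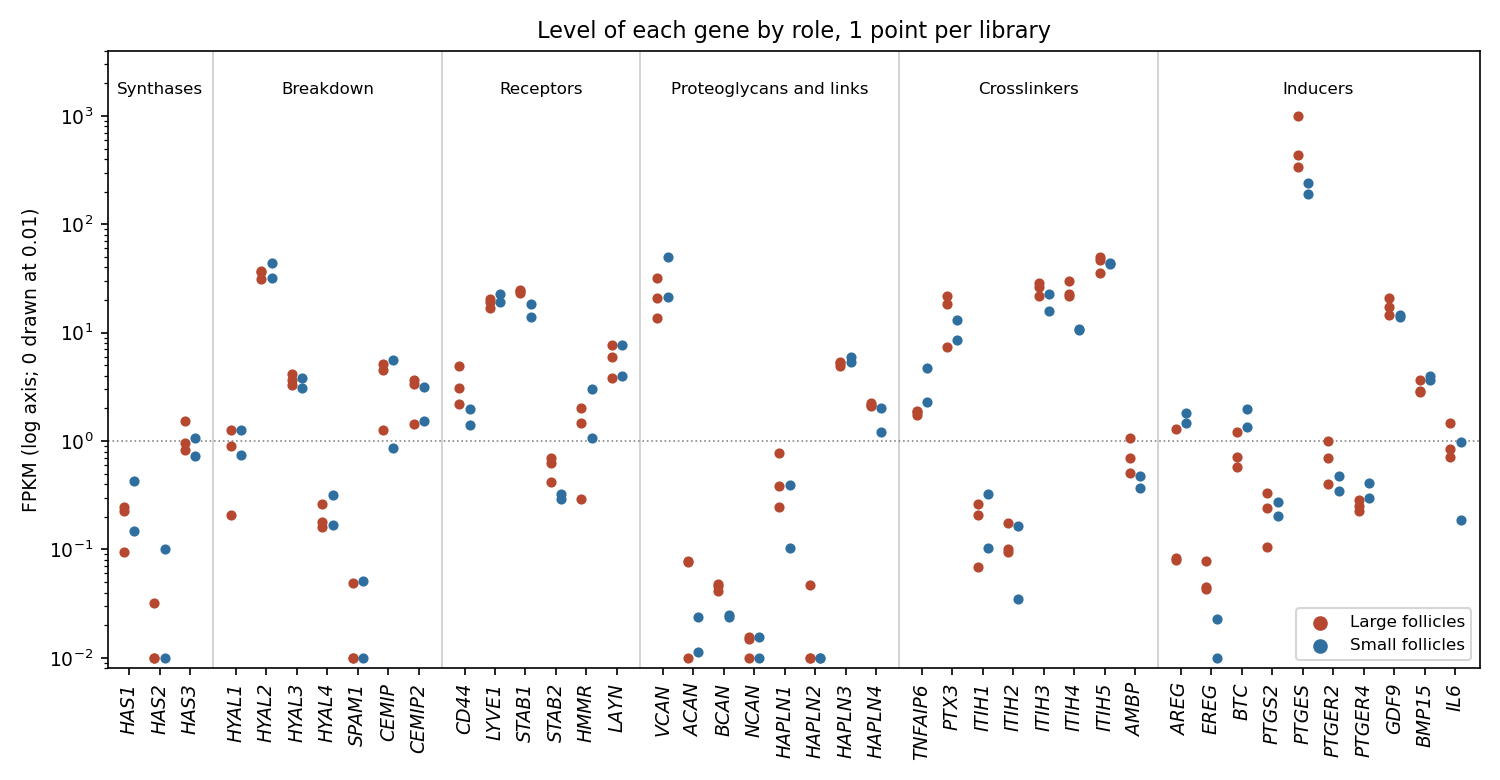
FPKM on a log axis for hyaluronan and cumulus expansion genes grouped by role, with 1 point per library, red for large follicles on the left of each gene and blue for small follicles on the right; values of 0 are drawn at 0.01 and the dotted line marks 1 FPKM. HAS2, HAS1, HAPLN1, PTGS2 and EREG lie under 1 FPKM in every library, while HYAL2, VCAN and PTX3 lie above 5 FPKM in every library.

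TNFAIP6, the enzyme that loads heavy chains onto hyaluronan, had lower values in every large follicle library than in either small one. The gene lies on chromosome 15, 862013 to 881352. TNFAIP6 had 1.73, 1.85 and 1.90 FPKM in large follicles, from 28, 26 and 28 fragments, and 2.31 and 4.73 FPKM in small follicles, from 31 and 67 fragments. The large libraries were close together and small follicle replicate 2 stood far above them. The Poisson 95% interval of small follicle replicate 1, 1.57 to 3.28 FPKM, took in all 3 large values. Its log2 fold change was -0.63 ± 0.31 (limma adjusted p = 0.549), with a 95% interval from -1.32 to 0.072, and with a library left out it ran from -1.02 to -0.23, smallest without small follicle replicate 2. Of 10 granulosa cell markers, all tested, 3 had higher and 7 lower values in large follicles, with 1 called lower by limma. Their summed level was 6650 to 15370 FPKM in large and 4911 to 7425 FPKM in small follicles. INHA, 1 of the 3 higher genes, was the largest part of that sum in every library. It had 4474, 11739 and 6453 FPKM in large and 2876 and 3515 FPKM in small follicles. The part of granulosa cells in the TNFAIP6 values was not tested.

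PTX3, a pentraxin that also takes part in innate immunity, lies on chromosome 13, 97273594 to 97279570, inside the span of VEPH1 on the other strand, which was nearly silent. PTX3 had 18.2, 7.42 and 21.7 FPKM in large follicles, against 8.56 and 13.0 FPKM in small follicles. Large follicle replicates 1 and 3 stood above both small libraries and replicate 2 lay below them. Its log2 fold change was 0.42 ± 0.41 (limma adjusted p = 0.828), with a 95% interval from -0.497 to 1.33. Without large follicle replicate 2 it was 0.85 (limma adjusted p = 0.195), without large follicle replicate 3 it was 0.14 (limma adjusted p = 0.923), and it ran from 0.14 to 0.85 over the 5 libraries left out in turn.

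The chains of the inter-alpha-trypsin inhibitor are best known from the liver. The list of 6 holds the heavy chain genes ITIH1, ITIH2, ITIH3, ITIH4 and ITIH5 and the light chain gene AMBP, and 3 of the 6 passed the filter. Limma called 0 of the 3, and 1, ITIH4, had an unadjusted p under 0.05. ITIH4, whose product is a relative that lacks the hyaluronan-linking end, had 21.8, 22.7 and 29.9 FPKM in large and 10.6 and 10.9 FPKM in small follicles. All large libraries lay above both small ones, and the fitted difference was 1.12 ± 0.23 on the log2 scale (limma adjusted p = 0.0657). That adjusted p was 0.0364 with median-of-ratios scaling, 0.0336 without large follicle replicate 2 and 0.0410 with quantile normalization, and reached 0.558 with a replicate block. ITIH3 averaged 25.8 ± 3.56 FPKM in large and 19.4 ± 5.14 FPKM in small follicles (limma adjusted p = 0.655). ITIH5 had the highest mean of the 3, at 44.1 ± 7.55 FPKM in large and 43.7 ± 0.530 FPKM in small follicles (limma adjusted p = 0.998).

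CD44, the main hyaluronan receptor of the cell surface and a protein of leukocytes as well as cumulus cells, had higher values in every large follicle library. The gene lies on chromosome 2, 25788699 to 25884209. CD44 had 2.19, 4.92 and 3.10 FPKM in large follicles, from 122, 238 and 157 fragments, and 1.41 and 1.99 FPKM in small follicles, from 65 and 97 fragments. Large follicle replicate 2 was the highest, and replicate 1 was just above small follicle replicate 2. The Poisson 95% interval of large follicle replicate 1, 1.82 to 2.61 FPKM, took in the value of small follicle replicate 2. The CD44 log2 fold change was 0.67 ± 0.33 (limma adjusted p = 0.549), with a 95% interval from -0.077 to 1.41.

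Values of myeloid marker genes were also mostly higher in large follicles. Of 12 myeloid markers, all tested, 11 had higher and 1 lower values in large follicles, and LYZ, the lysozyme of myeloid cells, was called higher by limma (0 were called lower). Their summed level was 392 to 572 FPKM in large and 285 to 316 FPKM in small follicles. Large follicle replicate 2 was the highest library here as for CD44. The same library also had the highest sums of granulosa, theca, endothelial and smooth muscle markers, at 15370, 8072, 310 and 4834 FPKM. Abundant genes weigh most in such sums, and single granulosa and theca markers went both ways. INHA, CYP19A3, CYP17A1, INSL3, STAR and COL1A1 were highest in that library. FSHR, AMH, GATM, PTCH1, GLI1 and NR2F2 had their lowest value of all 5 libraries there. Sums of oocyte, lymphocyte, mesenchymal fibroblast and surface epithelium markers were highest in other large libraries. WT1 was the largest part of the surface epithelium sum in every library. Of the other genes in that sum, KRT7 and KRT19 were highest in large follicle replicate 2, and KRT18 and UPK3B in small follicle replicate 1. S100A12, a neutrophil protein, was at 0 in small follicle replicate 1. Lymphocyte markers summed to 17.0 to 31.4 FPKM in large and 14.8 to 16.5 FPKM in small follicles. The part of myeloid cells and lymphocytes in the CD44 values was not tested. In bulk RNA fewer cells of a type and less RNA per cell cannot be told apart.

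Of 7 other genes whose products bind hyaluronan or its fragments 6 were tested, 4 with higher and 2 with lower values in large follicles, and limma called 0. STAB1, a scavenger receptor of macrophages and sinusoidal endothelium, had 24.1, 23.3 and 24.9 FPKM in large and 13.9 and 18.5 FPKM in small follicles (log2 fold change 0.56 ± 0.22, limma adjusted p = 0.404), and alone in this list had an unadjusted p under 0.05. Of 9 endothelial markers 7 had higher and 2, CDH5 and KDR, lower values in large follicles, and 1, AQP1, was called higher. They summed to 291 to 310 FPKM in large and 225 to 239 FPKM in small follicles. AQP1 alone had 81.7, 85.5 and 83.0 FPKM in large and 36.2 and 40.5 FPKM in small follicles. The part of endothelial cells in the STAB1 values, like that of myeloid cells, was not tested. TLR2 and TLR4, innate receptors for which hyaluronan fragments are proposed ligands, had log2 fold changes of 0.48 ± 0.26 and 0.45 ± 0.33 (limma adjusted p = 0.599 and 0.730). LYVE1, the receptor of lymphatic vessels, averaged 18.9 ± 1.88 FPKM in large and 20.99 ± 2.76 FPKM in small follicles (limma adjusted p = 0.902). HMMR, a hyaluronan-binding protein best known from the mitotic spindle, had 1.46, 0.293 and 2.01 FPKM in large and 1.06 and 3.05 FPKM in small follicles (limma adjusted p = 0.815).

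HYAL2, a membrane-anchored hyaluronidase that cuts long chains into fragments, had the highest mean level of the 8 RNAs and the smallest spread over libraries of the 6 tested. The gene lies on chromosome 13, 32805220 to 32813684, and overlaps TUSC2 on the same strand, so fragments from the shared stretch are uncertain. HYAL2 had 37.1, 31.6 and 36.4 FPKM in large follicles, against 31.7 and 44.1 FPKM in small follicles. Small follicle replicate 2 was the highest library and small follicle replicate 1 lay just above the lowest large one, and the highest library exceeded the lowest by 1.397-fold. Its log2 fold change was -0.095 ± 0.22 (limma adjusted p = 0.938), with a 95% interval from -0.59 to 0.40.

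None of the other genes of hyaluronan breakdown was called either. Of 9 in the list 7 were tested, 4 with higher and 3 with lower values in large follicles, and limma called 0, with 0 at an unadjusted p under 0.05. HYAL3 averaged 3.69 ± 0.423 FPKM in large and 3.46 ± 0.526 FPKM in small follicles (limma adjusted p = 0.964). HYAL1, the lysosomal hyaluronidase, had 5, 19 and 28 fragments in large and 15 and 27 fragments in small follicles (limma adjusted p = 0.899). Per length, HYAL2 exceeded HYAL3 in each library by 7.63-fold to 11.5-fold. HEXA, a subunit of the lysosomal hexosaminidase that trims the fragments, had a fitted difference of 0.18 ± 0.20 on the log2 scale (limma adjusted p = 0.857).

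**Figure D3:**
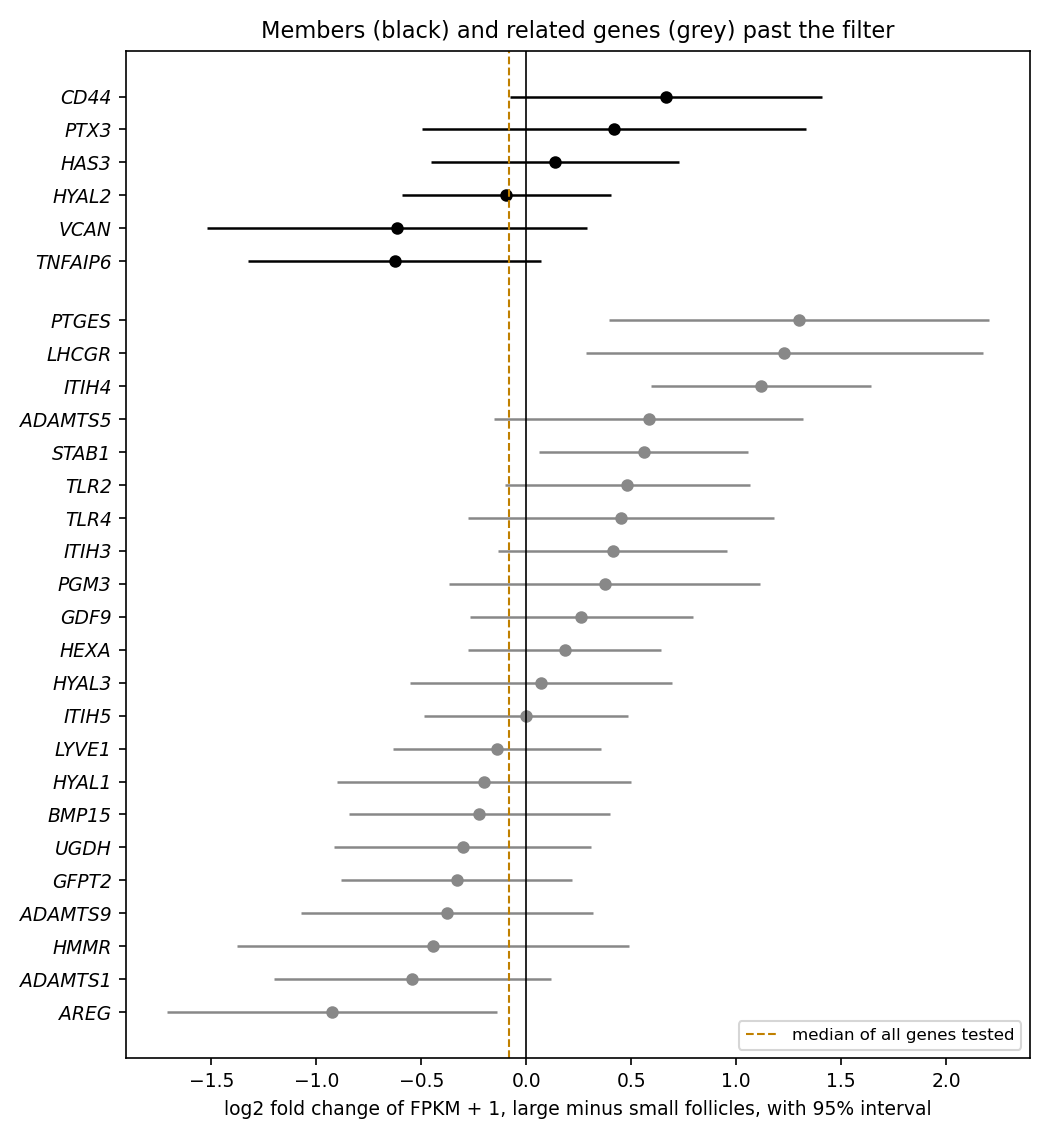
Log2 fold change of FPKM + 1, large minus small follicles, with limma's 95% intervals, for the 6 tested members in black and the related genes named in the text in grey; the dashed line is the median of all genes tested, -0.08. Each of the 6 members' intervals takes in 0, and no gene drawn was called after adjustment.

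Among the signals that start cumulus expansion, PTGS2 and EREG counted few fragments in every library. PTGS2, the inducible cyclooxygenase of the ovulatory follicle, had 10, 12 and 4 fragments in large and 7 and 10 fragments in small follicles. EREG, an EGF-like ligand, had 4, 2 and 2 fragments in large and 0 and 1 fragments in small follicles. AREG, another EGF-like ligand, had 18, 1 and 1 fragments in large and 17 and 22 fragments in small follicles, so large follicle replicate 1 was close to the small libraries and the other large ones were near 0. The AREG log2 fold change was -0.93 ± 0.35 (limma adjusted p = 0.370). PTGER2, a receptor of prostaglandin E2, reached 0.993 FPKM at most and was not tested.

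Of 17 genes in the list of expansion inducers 12 were tested, 4 with higher and 8 with lower values in large follicles. Limma called 0, and 3 had an unadjusted p under 0.05: AREG, PTGES and LHCGR. PTGES, the synthase that forms prostaglandin E2 downstream of PTGS2, had 335.9, 991.5 and 438.5 FPKM in large and 191 and 239 FPKM in small follicles. All large libraries were above both small ones, and the fitted difference was 1.298 ± 0.40 on the log2 scale (limma adjusted p = 0.246). With a replicate block PTGES passed (limma adjusted p = 0.00588). That fit pairs libraries by replicate number, which the labels do not tie to an animal, and large follicle replicate 3 has no small partner in it. That replicate therefore does not enter the fold change, and the fit leaves few data from which to estimate the spread. Without large follicle replicate 2 the PTGES difference was 0.84. LHCGR, the luteinizing hormone receptor, had 33.5, 73.1 and 87.0 FPKM in large and 16.8 and 36.8 FPKM in small follicles, with overlapping groups (log2 fold change 1.23 ± 0.42, limma adjusted p = 0.311), and without small follicle replicate 1 its fold change was 0.69 (limma adjusted p = 0.607). GDF9 and BMP15, oocyte growth factors that enable expansion in mice, had log2 fold changes of 0.26 ± 0.24 and -0.22 ± 0.28 (limma adjusted p = 0.805 and 0.874).

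The order of the levels was alike in both sizes except in the middle. In large follicles the means ran from HYAL2 at 35.0 FPKM over VCAN at 22.2, PTX3 at 15.8, CD44 at 3.40, TNFAIP6 at 1.82, HAS3 at 1.11 and HAPLN1 at 0.470 to HAS2 at 0.0107 FPKM. In small follicles TNFAIP6, at 3.52 FPKM, stood above CD44, at 1.70 FPKM. HYAL2 and VCAN did not separate: the ratio of HYAL2 to VCAN was between 1.13 and 2.29 in large and 1.49 and 0.880 in small follicles. Among the 23353 genes above 0 in any library, the mean FPKM of HYAL2 lay at percentile 91.6, that of PTX3 at 81.3 and that of HAS2 at 10.9.

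Libraries of the same size also differed from each other. Small follicle replicate 2 exceeded replicate 1 for 8 of 8, an order shared by 79.6% of all genes tested. Large follicle replicate 2 was the lowest of the large libraries for 5 of 8, namely HAS3, PTX3, VCAN, HAPLN1 and HYAL2, an order found in 61.9% of genes tested. CD44 ran the other way, highest in large follicle replicate 2.

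**Figure D4:**
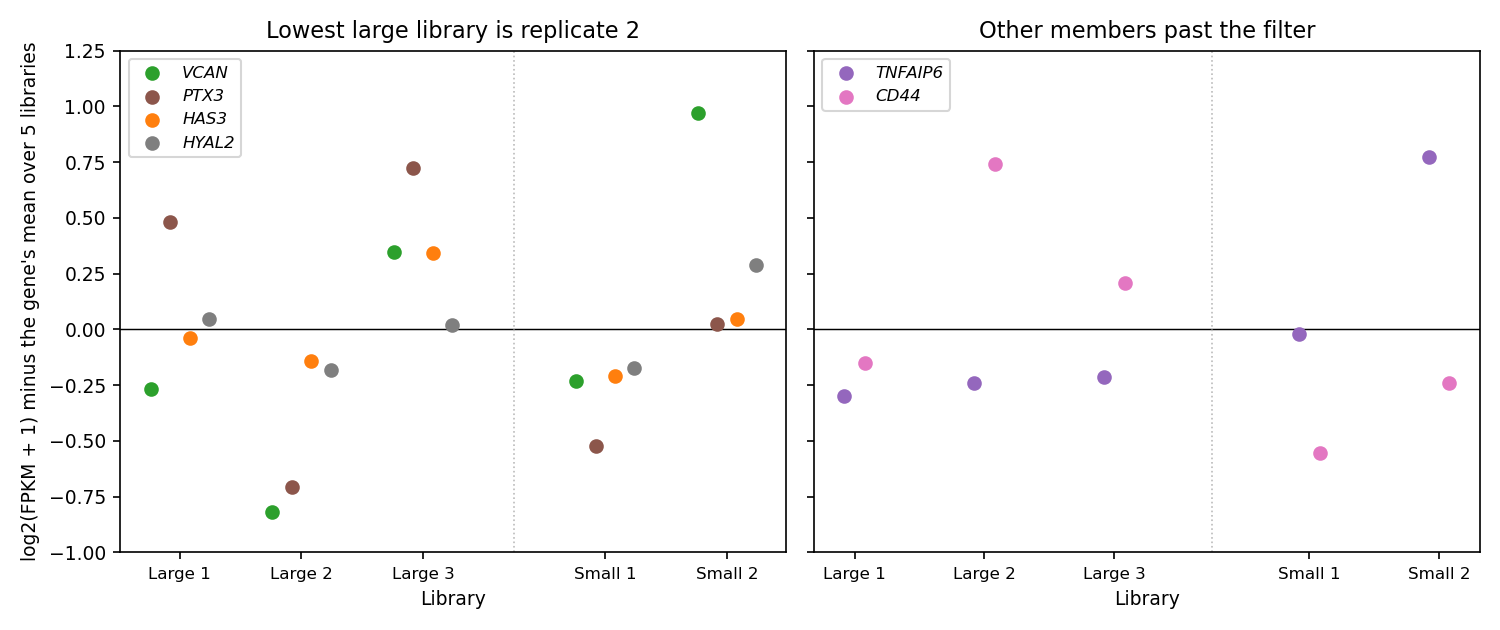
Log2(FPKM + 1) of the 6 tested genes in each library, minus the gene's mean over the 5 libraries, with large follicles on the left of the dotted line; each point is a library. VCAN and PTX3 share their lowest large library, replicate 2, while CD44 is highest there and TNFAIP6 is nearly level across the 3 large libraries.

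VCAN, PTX3 and CD44 had the widest spread over the 5 libraries, with SDs of 0.68, 0.62 and 0.496 on the log2(FPKM + 1) scale. The gene closest to VCAN in its pattern was CHSY1, which builds the chondroitin sulfate chains carried by proteoglycans such as versican, with a root mean square difference of 0.058 between the 2 centred log2 profiles over 5 libraries. CHSY1 had 10.4, 6.17 and 15.4 FPKM in large and 10.7 and 23.5 FPKM in small follicles. DNAJB4, a heat shock protein partner, and SCAF11, a splicing factor, followed at 0.089 and 0.10. Closest to PTX3 were OMD, a small leucine-rich proteoglycan, at 0.058, then TP53INP1 at 0.11 and MMRN1, a protein of platelets and endothelium, at 0.13. Closest to CD44 were DDX56, an RNA helicase, at 0.11, HSD3B1, which forms progesterone, at 0.12 and TP53INP2 at 0.12. These were the nearest of 7611 named genes (7612 for CD44) with a mean of at least 5 FPKM, over only 5 libraries, and none of the 9 was called by limma.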

How the data were processed

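The deposited values are FPKM per gene, computed by the authors. Per the submitters' processing notes, the tools were HISAT2 2.0.5, featureCounts 1.5.0-p3, Trimmomatic 0.38, StringTie 1.3.3 and FastQC 0.11.4 and the build was Sscrofa11.1, with no role or order given. Per the labels' protocols, TRIzol extraction was followed by a stranded mRNA kit and paired-end sequencing.

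Fragments were worked back from the FPKM steps. Of 23353 genes above 0, 49.5% gave whole fragments within 0.001 with the listed length and the rest with a shorter one found by search (HAS3, VCAN, HAPLN1, CD44 and HYAL2 among them). Floors of 3 fragments and Poisson 95% intervals cover counting error only.

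The test was limma 3.58.1 in R 4.3.3, two-sided, with a mean-variance trend and the group as its only term, on all genes past the filter; it was tested on simulated data. Exact permutation tests used scipy 1.17.1 and all 10 arrangements. Alternatives covered pseudocounts of 0.1 and 5, other filters, scalings and variance models, voom, a replicate block and each library left out. Entering the 2 members under the filter was added after seeing the data. CEMIP2 was read from its older symbol TMEM2. Named genes are the 8 members, 14 fixed related genes, and from each of 6 related lists those called and up to 3 more with the smallest p, plus, by likeness, the 3 nearest genes to the 3 most variable members; 1 gene this rule names is not reported here. The members and lists were chosen with earlier results of these data known.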

Additional observations from a re-analysis of the deposited data

How the results depend on the processing

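In every alternative run, limma called 0 of the members, including the fit into which HAS2 and HAPLN1 were entered. Of 87 member fold changes under alternatives 84 kept their direction and their side of the threshold and 3 turned, while the filter at 5 FPKM left HAS3, TNFAIP6 and CD44 with no value. HAS3 was at -0.0082 with a replicate block and also without large follicle replicate 3. These are the same estimate, because the block leaves that replicate out of the fold change. Leaving out each library gave -0.0082 to 0.27 for HAS3, -0.33 to 0.14 for HYAL2, -1.22 to -0.014 for VCAN, -1.02 to -0.23 for TNFAIP6, 0.14 to 0.85 for PTX3 and 0.43 to 0.87 for CD44. Among related genes it gave -0.93 to 0.042 for HMMR, -0.40 to 0.059 for HYAL1, -0.049 to 0.19 for HYAL3, -0.10 to 0.14 for ITIH5, -0.092 to 0.84 for PGM3, -0.66 to -0.094 for ADAMTS9, 0.69 to 1.77 for LHCGR and 0.84 to 1.62 for PTGES, and with median-of-ratios scaling ITIH5 was at 0.086. The count of all genes called, 128, was 32 with no filter, 41 at a mean FPKM of at least 5, 201 with quantile normalization, 70 with limma voom on fragments, 210 with median-of-ratios scaling and 29 to 268 with a library left out; the cause was not tested. A replicate block gave 157 calls. The labels do not say whether equal replicate numbers mean a shared animal. Deviations from the group means of large and small follicle replicates 1 correlated at -0.001 and those of replicates 2 at -0.449. Large replicate 2 with small replicate 1 gave 0.449, and large replicate 3 with small replicate 2 gave 0.533. With only 2 small libraries, their deviations are exact opposites, so these values cannot decide whether the replicates are paired. Depth limits HAS2, HAS1, EREG and PTGS2, with at most 12 fragments in a library.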

Other observations

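The values of 3 further genes are given here; they were chosen after their values were seen, and limma called none of them. EGFR, the receptor for amphiregulin and epiregulin, had 1.26, 2.83 and 4.02 FPKM in large and 4.04 and 6.11 FPKM in small follicles (log2 fold change -0.77 ± 0.38, limma adjusted p = 0.543). BTC, a further EGF-like ligand, had 0.708, 0.582 and 1.22 FPKM in large and 1.34 and 1.97 FPKM in small follicles (limma adjusted p = 0.556). CEMIP, which takes part in hyaluronan depolymerization, had the largest ratio of highest to lowest library of the 7 breakdown genes tested, at 4.54, 1.27 and 5.16 FPKM in large and 0.864 and 5.61 FPKM in small follicles (limma adjusted p = 0.930).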
